A study of Homo sapiens with 2 samples.

Results

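Golgi glycosyltransferases build the sugar chains of cell surface proteins and lipids, and 82 of their genes were examined here among the 19607 genes of the expression table. The members are the genes whose symbols begin with GALNT, MGAT, GCNT, B3GNT, B3GALT, B4GALT, ST3GAL, ST6GAL (ST6GALNAC included), ST8SIA or FUT, followed by a number where the family is numbered. They were picked by symbol alone, although the list was chosen with earlier results of these data known. RNA was sequenced from CWR22rv1 cells, a human CaP (prostate cancer) line, as 1 library of cells with the genotype Akt1/2 knockout (Akt1/2 DKO) and 1 library labelled wild type, the control. Akt1 and Akt2 had been disrupted by CRISPR/Cas9 in cells from which single clones were isolated, and the sample titles carry a number (5 for Akt1/2 DKO and 6 for control) without saying whether it names a clone. No treatment of the control cells is given in the labels. With 1 library per genotype, no difference below has a replicate check, no test between genotypes could be made, and an effect of the knockout cannot be told apart from a difference between a clone and its parent cells.

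Glycans are assembled stepwise along the Golgi. On O-glycans, the GALNT enzymes make the first step by transferring N-acetylgalactosamine (GalNAc) to serine or threonine. On N-glycans, the MGAT enzymes add the N-acetylglucosamine (GlcNAc) residues that start each antenna, and the GCNT enzymes make similar branches on O-glycans and on chains of repeated units. The B4GALT, B3GALT and B3GNT enzymes then lengthen the branches with galactose and GlcNAc. Sialic acid (ST3GAL, ST6GAL, ST6GALNAC and ST8SIA families) and fucose (FUT family) are mostly added last, as caps that lectins, antibodies and adhesion receptors recognise, and changes in branching and capping are widely described in carcinomas. These steps define the classes used here, namely initiation (17 genes), branching (14), extension (20), sialylation (20) and fucosylation (11).

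The stretches of DNA just before the starts of a few of these genes are shown because these genes had the largest differences in either direction among members with a sum of at least 100 reads, belong to a family whose members differed in opposite directions, or stand beside such a gene for comparison. Each is the 250 bases before a start annotated by RefSeq (GRCh38.p14), on the strand of the gene. Capitals mark GC boxes, the letters GGGCGG on either strand. ST8SIA1 (chr12:22334708-22334957, minus strand) and ST8SIA4 (chr5:100903283-100903532, minus strand) belong to the family that adds sialic acid to sialic acid, and they differed between the libraries in opposite directions.
ST8SIA1: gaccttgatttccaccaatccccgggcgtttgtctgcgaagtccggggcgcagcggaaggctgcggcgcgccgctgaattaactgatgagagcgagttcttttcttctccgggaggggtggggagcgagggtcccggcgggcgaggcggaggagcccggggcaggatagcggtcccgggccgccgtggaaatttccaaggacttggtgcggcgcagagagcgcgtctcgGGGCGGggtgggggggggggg
ST8SIA4: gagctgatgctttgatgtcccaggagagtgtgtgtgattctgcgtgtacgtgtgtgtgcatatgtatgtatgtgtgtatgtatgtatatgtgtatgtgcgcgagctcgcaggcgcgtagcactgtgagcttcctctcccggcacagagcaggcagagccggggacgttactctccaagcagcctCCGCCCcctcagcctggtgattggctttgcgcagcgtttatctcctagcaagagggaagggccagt
MGAT4C (chr12:86256392-86256641, minus strand) had the largest difference downwards among members with a sum of at least 100 reads, and MGAT4B (chr5:179806867-179807116, minus strand), of the same subfamily, had one of the smallest past 1.5-fold.
MGAT4C: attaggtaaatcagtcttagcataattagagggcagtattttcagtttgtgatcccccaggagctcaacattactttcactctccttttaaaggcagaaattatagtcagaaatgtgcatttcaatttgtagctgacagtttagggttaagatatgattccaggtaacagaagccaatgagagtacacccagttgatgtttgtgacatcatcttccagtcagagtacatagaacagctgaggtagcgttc
MGAT4B: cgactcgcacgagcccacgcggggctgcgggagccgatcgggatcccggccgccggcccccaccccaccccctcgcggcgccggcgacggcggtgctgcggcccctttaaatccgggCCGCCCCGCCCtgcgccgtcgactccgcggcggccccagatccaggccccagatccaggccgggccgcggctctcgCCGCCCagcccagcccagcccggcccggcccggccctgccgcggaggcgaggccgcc
GALNT7 (chr4:173168561-173168810, plus strand) had the largest difference upwards of the GALNT genes.
GALNT7: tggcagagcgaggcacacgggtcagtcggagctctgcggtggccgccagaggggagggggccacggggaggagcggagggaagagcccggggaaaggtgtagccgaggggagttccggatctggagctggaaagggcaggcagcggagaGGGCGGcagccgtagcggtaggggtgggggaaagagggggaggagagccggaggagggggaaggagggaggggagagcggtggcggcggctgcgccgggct
The table of promoters held 59 of the 82 members, in 102 windows. MGAT4C had 3 windows and MGAT4B 2, and the window nearest to the start of the principal transcript was taken. The MGAT4C window had no GC box and a GC content of 39.2%, while MGAT4B had 3 GC boxes, of which 2 overlap, and a GC content of 82.4%. GC boxes were found in 56.9% of the members' windows and in 42.6% of all 35116 windows. Since the study concerns FOXO factors, the FOXO core GTAAACA was searched on both strands in the same 250 bases. It was in 2.98% of all windows and in the windows of 2 members, B4GALT2 and B4GALT3.

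The files give an estimated number of reads for each gene, without normalization, and FPKM values, in which the authors took transcript length and depth into account. Total reads were 9970820 in control and 10718650 in Akt1/2 DKO. Reads were rounded and scaled by edgeR's TMM method, and fold changes below set Akt1/2 DKO over control in these normalized reads, with a 95% exact interval for counting error only. Levels of different genes are compared only as FPKM. The genes aimed at were lower in Akt1/2 DKO. AKT1 went from 2645 to 591 reads, 4.96-fold lower (4.54 to 5.43), and AKT2 from 2362 to 667, 3.93-fold lower. All 12 markers of luminal prostate epithelium had at least 10 reads in each library. The basal markers TP63 and KRT5 had none in either, the 3 endothelial markers held 1 read in control and 2 in Akt1/2 DKO, the 5 leukocyte markers held 6 and 11, and the 6 fibroblast markers held 142 and 157. In RNA from bulk cells, fewer cells that express a gene and less RNA per cell cannot be told apart.

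Of the 82 members, 55 reached a sum of 10 reads over both libraries and were compared. The 27 others were left out of all counts of differences. Of them, 16 had under 10 reads in all, namely GALNT5, GALNT12, GALNT13, GALNT15, GCNT2, GCNT3, GCNT7, B3GALT5, B3GNT7, B3GNT8, ST6GALNAC1, ST6GALNAC2, ST6GALNAC3, ST6GALNAC5, ST8SIA3 and FUT7, and 11 had none. Those without reads were GALNT9, GALNT14, MGAT4D, B3GALT2, B3GNT6, ST6GAL2, ST8SIA2, ST8SIA6, FUT3, FUT5 and FUT6. At this depth, a count of 0 allows up to 0.301 CPM (counts scaled to the library total) in control and 0.280 in Akt1/2 DKO. ST6GALNAC1, which makes the sialyl-Tn antigen and which the study names, had 0 reads in control and 1 in Akt1/2 DKO, too few for a fold.

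The transferase genes differed in both directions, from ST8SIA1 and GALNT7 on the higher side to GALNT8 and MGAT4C on the lower. Past 1.5-fold were 27 of the 55 compared (49.1%), with 13 higher and 14 lower in Akt1/2 DKO, where the same held for 30.9% of the 13318 genes compared in the whole table. The share higher over all genes was 15.9% and the share lower 15.0%. The median log2 fold change was -0.05 over the members and 0.01 over all genes, so the list as a whole lay near 0, while the median size of the change regardless of sign was 0.55 against 0.33. Few reads widen such ratios, and among members with a sum of at least 100 reads 15 of 36 (41.7%) passed 1.5-fold, against 23.2% of all such genes. For 23 of the 27 members the counting interval did not include no change, which held at the same fold for 27.0% of all genes compared. The other 4 had few reads, with 8 and 5 for GALNT16, 8 and 3 for GCNT4, 24 and 44 for B3GALT4, and 5 and 9 for ST8SIA5, in control and Akt1/2 DKO. The 28 members inside 1.5-fold had log2 fold changes from -0.55 to 0.51.

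**Figure D1:**
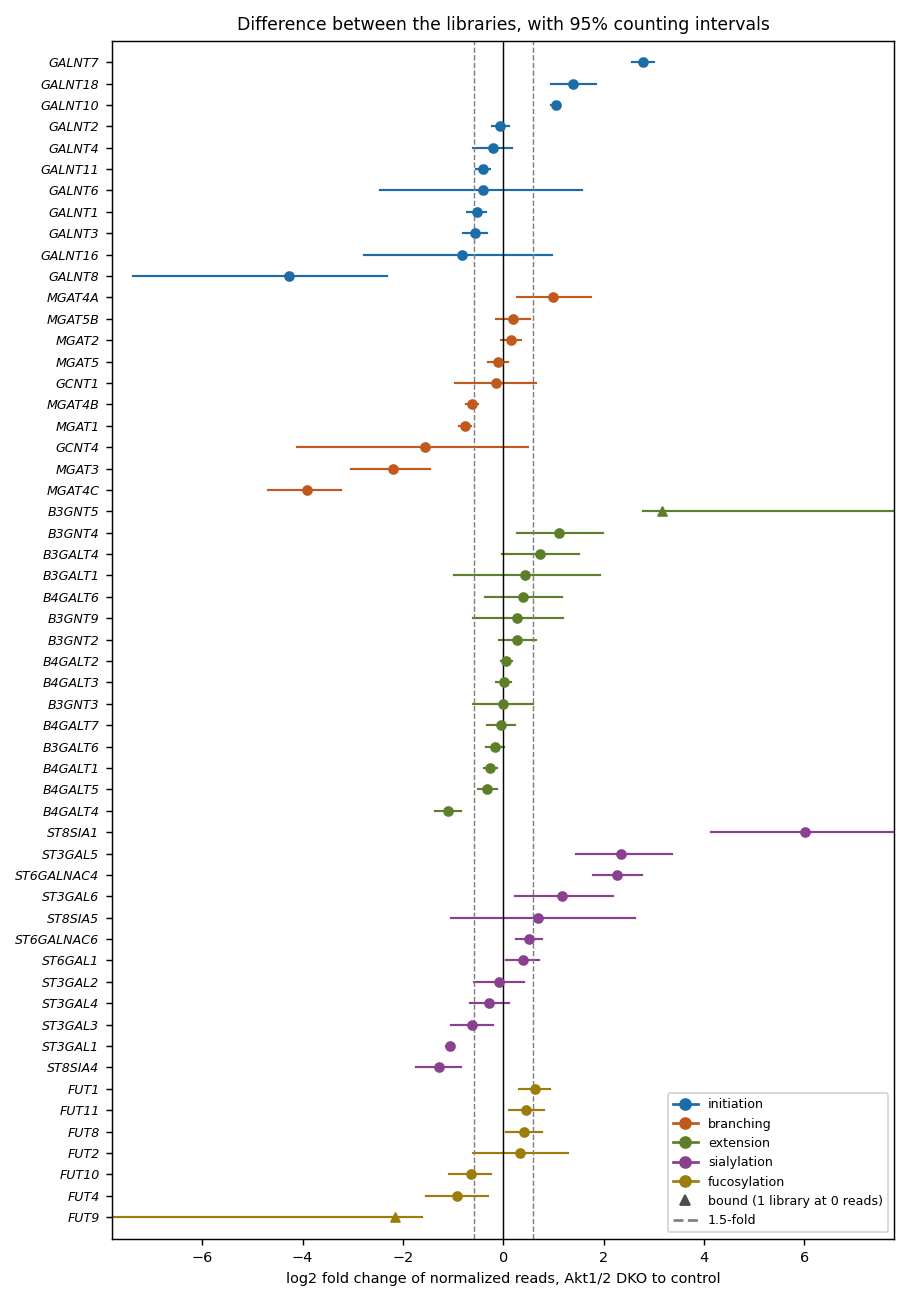
The log2 fold change of normalized reads (Akt1/2 DKO to control, horizontal axis) is drawn for each of the 55 members compared, coloured by class, with 95% intervals for counting error, dashed lines at 1.5-fold and triangles for bounds. ST8SIA1 lies farthest to the right at 6.02 and GALNT8 farthest to the left at -4.28, and the B4GALT genes other than B4GALT4 sit between -0.32 and 0.40.

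Among the GALNT genes, which form the initiation class, 3 of the 11 compared were higher and 2 lower past 1.5-fold in Akt1/2 DKO (45.5%, against 30.9% of all genes compared). GALNT7 (ENSG00000109586, chromosome 4 from 173168753 to 173323967), which prefers peptides that already carry a GalNAc, went from 192 to 1464 reads. This was 6.88-fold higher (5.91 to 8.04). GALNT10, another enzyme of this follow-up kind, went from 1513 to 3466 reads, 2.07-fold higher (1.94 to 2.20). GALNT18, a member of the same family, went from 58 to 169 reads, 2.63-fold higher (1.94 to 3.61). In the other direction, GALNT8 had 35 reads in control and 2 in Akt1/2 DKO, 19.4-fold lower with a wide counting interval (4.98 to 167). Its annotated exons share 43.9% of their bases with those of KCNA6 on the same strand, for which no reads were listed. GALNT1 and GALNT2, which act first on many peptides, had log2 fold changes of -0.53 and -0.05, and GALNT3, which protects FGF23 from cleavage, -0.55, all inside 1.5-fold. Reads of GALNT4 (117 and 112) may be shared with the readthrough gene POC1B-GALNT4 (124 and 134), which holds its sequence.

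Per length, the make-up of this class differed between the libraries. In control, GALNT11 held the largest part of the summed FPKM of the GALNT genes, 33.5%, followed by GALNT10 with 20.2%, and GALNT7 held 7.0%. In Akt1/2 DKO, GALNT10 held 32.6%, GALNT7 23.0% and GALNT11 20.5%. The sum itself was 129 FPKM in control and 169 in Akt1/2 DKO, a ratio of 1.31. Within it, the follow-up enzymes GALNT7 (9.06 and 38.9 FPKM) and GALNT10 (26.0 and 55.0) were higher. GALNT11 (43.1 and 34.5), GALNT1 (14.8 and 10.8) and GALNT3 (12.8 and 7.62) were lower, and GALNT2 had 13.0 and 12.9.

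**Figure D2:**
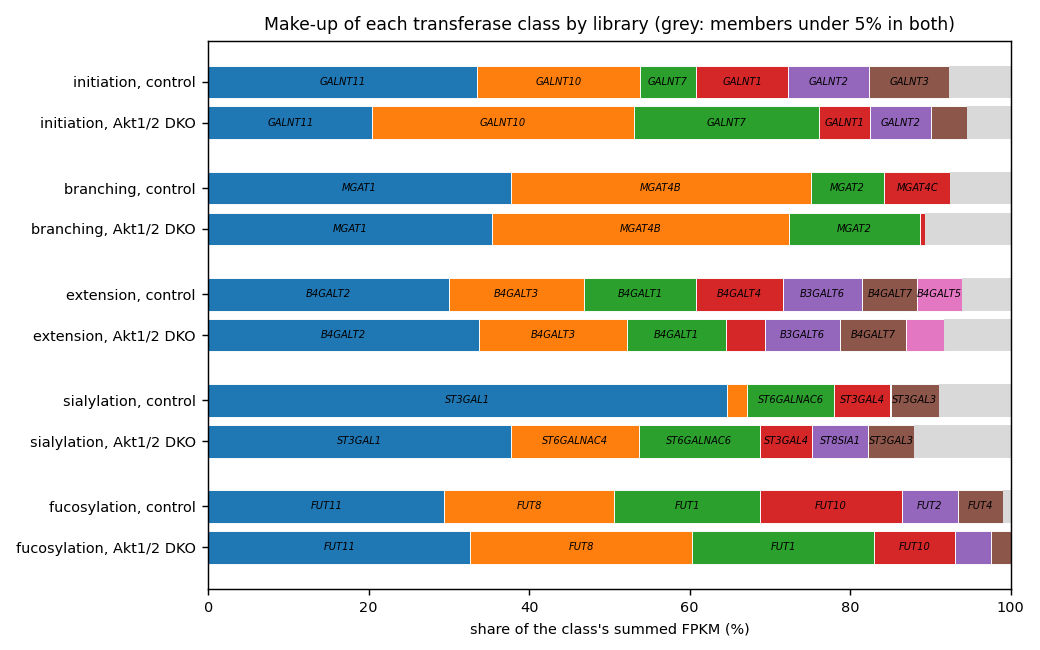
Each bar divides the summed FPKM of a class into its members (horizontal axis, share in percent), with control above Akt1/2 DKO and members under 5% in both libraries in grey. GALNT7 widened from 7.0% to 23.0% of initiation, ST3GAL1 narrowed from 64.7% to 37.8% of sialylation, and MGAT1 and MGAT4B held 37.7% and 37.4% of branching in control and 35.4% and 37.0% in Akt1/2 DKO.

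The branching enzymes were mostly lower. Among the 10 compared, 1 was higher past 1.5-fold and 5 lower (60.0%, against 30.9% of all genes compared). Their median log2 fold change was -0.39. MGAT1, which opens the way to all hybrid and complex N-glycans, went from 1561 to 1018 reads, 1.70-fold lower (1.57 to 1.84). MGAT4B, which with MGAT4A starts a further antenna, went from 1262 to 908, 1.54-fold lower (1.41 to 1.68). These were the highest genes of the class, with 58.6 and 58.0 FPKM in control and 35.6 and 37.1 in Akt1/2 DKO. MGAT4B was inside 1.5-fold with total count or upper-quartile scaling. Both genes lie near the end of the long arm of chromosome 5, 977829 bases apart. Neighbours on either side with at least 50 reads had a median log2 fold change of -0.03 around MGAT1 (16 genes) and -0.05 around MGAT4B (20 genes). The exons of MGAT4B share 105 bases with those of SQSTM1 on the opposite strand, which went from 1909 to 1358 reads.

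Larger ratios were seen in less abundant members. MGAT4C (ENSG00000182050, chromosome 12 from 85955666 to 86838904), a relative of MGAT4A and MGAT4B, went from 246 to 18 reads, 15.2-fold lower (9.39 to 26.0), and from 12.7 to 0.64 FPKM. MGAT3 (chromosome 22), which adds the bisecting GlcNAc that hinders further branching, went from 75 to 18 reads, 4.62-fold lower (2.73 to 8.21). MGAT4A, in contrast, had 24 reads in control and 53 in Akt1/2 DKO, 1.99-fold higher (1.21 to 3.37). Within the MGAT4 subfamily, therefore, the abundant MGAT4B and the less abundant MGAT4C were lower and MGAT4A was higher. MGAT2, which starts the second arm, and MGAT5, whose branch carries polylactosamine and has been much studied in metastasis, had log2 fold changes of 0.16 (-0.04 to 0.35) and -0.11 (-0.31 to 0.09). GCNT1, the core 2 branching enzyme of O-glycans, had 28 reads in each library. The summed FPKM of the class was 155 in control and 100.4 in Akt1/2 DKO.

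The extension enzymes differed least. Among the 15 compared, 3 were higher past 1.5-fold and 1 lower (26.7%, near the 30.9% of all genes compared). Their median log2 fold change was 0.06 and its median size 0.28, against 0.33 over all genes. Of the 7 B4GALT genes, most of which add galactose to GlcNAc or glucose, 6 were inside 1.5-fold. B4GALT2, the highest of them, had 55.3 FPKM in control and 60.0 in Akt1/2 DKO, and a log2 fold change of 0.06 (-0.05 to 0.18). B4GALT1 had 1075 and 997 reads. B4GALT5 and B4GALT6, the lactosylceramide synthases, had log2 fold changes of -0.32 and 0.40, and B4GALT7 and B3GALT6, which build the linker of proteoglycans, of -0.05 and -0.17. The exception was B4GALT4, which went from 387 to 200 reads, 2.15-fold lower (1.80 to 2.56). B3GNT2, the main polylactosamine synthase, had 110 and 148 reads, a log2 fold change of 0.28 (-0.09 to 0.65).

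B3GNT5, which commits lactosylceramide to the lacto and neolacto series of glycolipids, was the 1 compared member without reads in control. With 30 reads in Akt1/2 DKO it was at least 9.02-fold higher, control being set to a floor of 3 reads (lower limit 6.89). Its exons share 16.2% of their bases with MCF2L2 on the opposite strand, which had 3 and 15 reads, and the counting is not stated to use strand. B3GNT4 went from 18 to 43 reads, 2.15-fold higher (1.22 to 3.97), with 20.7% of its exon bases shared with DIABLO on the opposite strand (938 and 819 reads). For neither gene can reads of the partner be told apart.

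Sialylation held the highest share of genes past 1.5-fold in reads, 8 of 12 compared (66.7%, against 30.9% of all genes compared), 5 higher and 3 lower. In the authors' FPKM, ST3GAL3, ST3GAL6 and ST8SIA5 were inside 1.5-fold, and the share of sialylation was then below that of branching. ST8SIA1 (ENSG00000111728, chromosome 12 from 22063773 to 22437041), the GD3 synthase that adds a second sialic acid to ganglioside GM3, went from 2 to 144 reads, 64.9-fold higher (17.7 to 541), and from 0.11 to 6.51 FPKM. This was the largest difference of all members, from a gene nearly without reads in control. Of its 20 neighbours with at least 50 reads, 5 were lower in Akt1/2 DKO, with a median log2 fold change of 0.44, and their part in the difference was not tested. ST3GAL5, the GM3 synthase that makes its substrate, went from 12 to 68 reads, 5.11-fold higher (2.74 to 10.4). ST6GALNAC4 (chromosome 9 from 127907886 to 127917038), which adds a second sialic acid to sialylated core 1 O-glycans, went from 44 to 234 reads, 4.80-fold higher (3.46 to 6.78). ST6GALNAC6, 2477 bases away, also acts on gangliosides, and its log2 fold change was 0.51 (0.26 to 0.77), inside 1.5-fold.

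On the other side stood ST3GAL1 (ENSG00000008513, chromosome 8 from 133454848 to 133571940), which caps core 1 O-glycans and was the most abundant sialyltransferase gene in both libraries. It went from 3973 to 2114 reads, 2.08-fold lower (1.98 to 2.20), and from 67.3 to 35.3 FPKM. Of its 20 neighbours with at least 50 reads, 16 were lower in Akt1/2 DKO, with a median log2 fold change of -0.33, and the part of the region in the difference was not tested. ST8SIA4, which makes the polysialic acid of NCAM, went from 136 to 62 reads, 2.43-fold lower (1.79 to 3.34). ST3GAL3 had 118 and 85 reads, 1.54-fold lower (1.15 to 2.06), a call that was lost with total count scaling, upper-quartile scaling and the authors' FPKM. ST3GAL4, which like ST3GAL3 caps galactose on lactosamine chains, had 119 and 109 reads (log2 fold change -0.28), and ST3GAL2 had 68 and 71. ST6GAL1, the main enzyme for the other linkage of sialic acid on N-glycans, had 133 and 193 reads, 1.31-fold higher (1.04 to 1.64).

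Within the ST8SIA family the leading gene was not the same in the libraries. ST8SIA4 held 80.3% of the summed FPKM of the family in control and 12.8% in Akt1/2 DKO, while ST8SIA1 held 3.8% and 84.4%. In the ST6GALNAC family, ST6GALNAC4 held 18.3% and 50.5%. The pathway annotation deposited with the data, which was not used to choose the genes, places 10 members in ganglioside synthesis (ganglio series). Of the 8 compared, 5 were higher and 1 lower (median 0.71 on the log2 scale), and the interval did not include no change for 3 of the 5. Among the 5, ST8SIA5 had a log2 ratio of -0.07 in FPKM. In mucin type O-glycan synthesis 3 of 16 compared were higher and 4 lower (median -0.36), and in N-glycan synthesis 1 of 13 was higher and 4 lower (median 0.01). In the globo series 2 of 6 were higher and 2 lower, in the lacto and neolacto series 5 of 17 were higher and 4 lower, and in keratan sulfate synthesis 0 of 9 were higher and 3 lower. The shares past 1.5-fold were 33.3% in keratan sulfate and 38.5% in N-glycan synthesis, near the 30.9% of all genes compared (15.9% higher, 15.0% lower). They were 43.8% in mucin type O-glycan synthesis, 52.9% in the lacto and neolacto, 66.7% in the globo and 75.0% in the ganglio series, from 6 to 17 genes each.

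**Figure D3:**
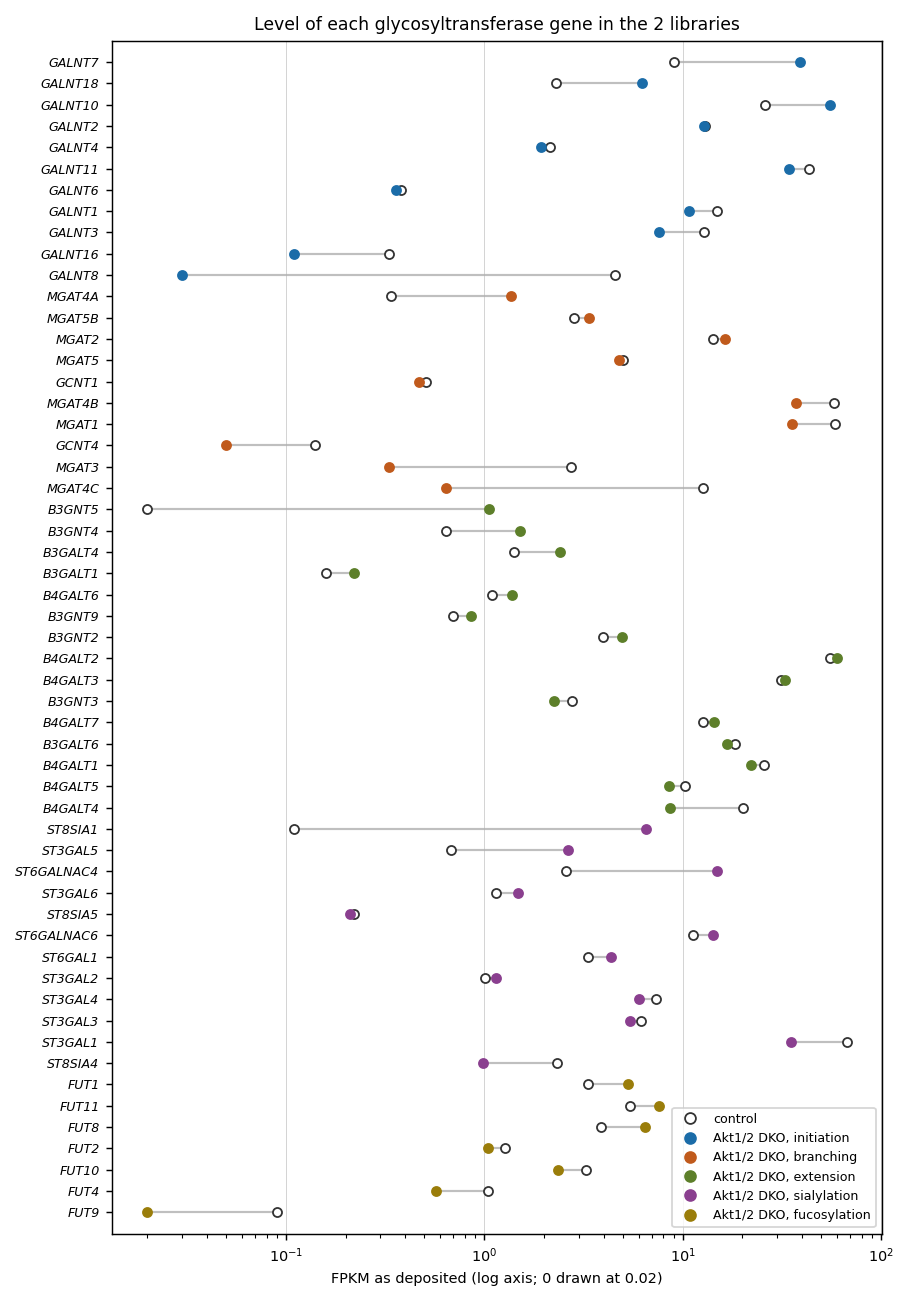
FPKM as deposited (horizontal log axis, values of 0 drawn at 0.02) is shown for each of the 55 members in control (open circles) and Akt1/2 DKO (filled circles, coloured by class). ST3GAL1 was the highest of all in control at 67.3 FPKM and B4GALT2 in Akt1/2 DKO at 60.0, and wide gaps are seen for ST8SIA1 (0.11 and 6.51), MGAT4C (12.7 and 0.64) and GALNT8 (4.57 and 0.03).

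The fucosyltransferases were expressed at low levels, with 18.4 FPKM summed over the class in control and 23.4 in Akt1/2 DKO. Of 7 compared, 1 was higher and 3 lower past 1.5-fold (57.1%, against 30.9% of all genes compared). FUT1, which makes the H antigen, went from 142 to 243 reads, 1.54-fold higher (1.25 to 1.91), and FUT2, its neighbour and paralog on chromosome 19, had 18 and 25. FUT4, which makes the Lewis x antigen, went from 63 to 37, 1.89-fold lower (1.24 to 2.91). FUT9, which makes the same antigen, had 12 reads in control and none in Akt1/2 DKO, which with the same floor was at least 4.43-fold lower (lower limit 3.08). FUT10 went from 119 to 84, 1.57-fold lower (1.18 to 2.10), and was inside 1.5-fold in the authors' FPKM. FUT11, the highest of the class, had 5.40 and 7.63 FPKM, and a log2 fold change of 0.46. FUT8, the core fucosyltransferase of N-glycans, had 107 and 158 reads and a log2 fold change of 0.41 (0.05 to 0.78). In reads, both of these Lewis x enzymes were lower and FUT1 was the single member of the class higher past 1.5-fold. In the authors' FPKM, FUT8 was also past 1.5-fold higher (0.74 as a log2 ratio), and with a pseudocount of 1 FUT1 (0.54), FUT4 (-0.38) and FUT9 (-0.12) were inside it.

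Set side by side, the classes differed in balance. In reads, the shares of compared members past 1.5-fold were 26.7% in extension, 45.5% in initiation, 57.1% in fucosylation, 60.0% in branching and 66.7% in sialylation, from 7 to 15 genes each. Over all genes compared the share was 30.9% (15.9% higher, 15.0% lower), so extension lay near it. Past 1.5-fold in reads, lower members outnumbered higher ones in branching (5 and 1) and fucosylation (3 and 1). Higher ones outnumbered lower ones in sialylation (5 and 3), extension (3 and 1) and initiation (3 and 2). With only members whose interval did not include no change, lower and higher numbered 4 and 1 in branching and 3 and 1 in fucosylation. Higher and lower then numbered 4 and 3 in sialylation, 2 and 1 in extension, and 3 and 1 in initiation. The medians over all compared members did not always have the same sign as these counts. The median log2 fold change was -0.40 in initiation and 0.33 in fucosylation, against the balance of their counts, and -0.39 in branching, 0.06 in extension and 0.45 in sialylation. In the authors' FPKM the balance was not kept in all classes. With a pseudocount of 0.1, FUT10 was lost and FUT8 and GALNT3 gained, so higher and lower members were even in fucosylation and in initiation. With a pseudocount of 1, FUT1, FUT4, FUT9 and FUT10 were lost, and fucosylation had no lower member past 1.5-fold. Sialylation did not have the largest share with either. Summed FPKM, which the abundant genes dominate, was lower in Akt1/2 DKO for branching (ratio 0.647) and sialylation (0.899), nearly equal for extension (0.963) and higher for initiation (1.31) and fucosylation (1.27). The sum for sialylation was lower although more of its genes were higher, and ST3GAL1 alone made up 64.7% of it in control.

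Chromosome 3 needs separate mention, because 579 of its 666 genes with at least 50 reads were lower in Akt1/2 DKO, with a median log2 fold change of -0.53, against medians from -0.20 to 0.12 on the other chromosomes. Of the members, 5 lie on it. B4GALT4 was lower, with a log2 fold change of -1.10, beside a median of -0.64 for its 20 neighbours with at least 50 reads. Of the others, 3 were higher. B3GNT5 was higher beside a median of -0.77 for its neighbours, ST3GAL6, which caps lactosamine chains, went from 14 to 35 reads (2.25-fold higher, 1.18 to 4.54, but inside 1.5-fold in the authors' FPKM), ST6GAL1 was 1.31-fold higher, and GALNT15, with 2 and 3 reads, was not compared. The part of the chromosome in the difference of B4GALT4 was not tested. Without these 5 genes, 24 of 51 members passed 1.5-fold (47.1%), 11 higher and 13 lower. Over all genes compared outside chromosome 3 it was 3699 of 12564 (29.4%), 2054 higher and 1645 lower.

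The genes that supply, trim or read glycans were taken as a list of 65 entries for 64 symbols, of which 55 were compared. Of these, 15 (27.3%) passed 1.5-fold, 3 higher and 12 lower, close to the 30.9% of all genes, with a median log2 fold change of -0.08. The split moved with the scaling, to 5 higher and 11 lower with total count or upper-quartile scaling, and to 7 and 11 or 6 and 9 in the authors' FPKM with a pseudocount of 0.1 or 1. With TMM scaling the 3 higher genes all make sugar nucleotides, the activated donors of the transferases. Under the other scalings just named, the N-glycan trimming gene MAN2A2 joined them, as did NANS of donor synthesis (1.49-fold higher with TMM). In FPKM, FPGT of donor synthesis (log2 ratio 0.84) and B4GALNT1 (0.60) were also past 1.5-fold, B4GALNT1 not with a pseudocount of 1. CMAS, which activates sialic acid, went from 924 to 2814 reads, 2.75-fold higher (2.55 to 2.96). GFPT1, the entry enzyme of the hexosamine pathway to GlcNAc, went from 519 to 1275, 2.22-fold higher (2.00 to 2.46). GMDS, which starts the synthesis of GDP-fucose, went from 132 to 231, 1.58-fold higher (1.27 to 1.97). Of all 15 genes of donor synthesis, 4 passed 1.5-fold (26.7%, near the 30.9% of all genes compared), 3 higher and 1 lower. Their median log2 fold change was 0.44, and the lower gene was FUK, the kinase that salvages fucose (1.52-fold lower). CMAS is also the neighbour of ST8SIA1 on the opposite strand. Their spans overlap by 1902 bases, of which 0 lie in exons of both.

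The lower genes of the list lay in trimming, transport, removal and other transferases, besides FUK and the galectin LGALS4. NEU1, the lysosomal sialidase, went from 559 to 284 reads, 2.18-fold lower (1.89 to 2.53), and FUCA1, the lysosomal fucosidase, from 277 to 177. The mannosidases MAN1A1, MAN1B1 and MAN1C1, which trim N-glycans before MGAT1 acts, were 1.89-fold, 1.57-fold and 2.90-fold lower, and MAN2A2, which acts after it, had 568 and 942 reads (log2 fold change 0.58, just inside 1.5-fold, but 0.63 with total count or upper-quartile scaling and 0.94 or 0.88 in FPKM, past it). SLC35D2, a transporter of UDP-GlcNAc, went from 140 to 66, 2.35-fold lower (1.74 to 3.20). Of the other transferases, B4GALNT3, which makes the LacdiNAc unit, went from 133 to 54, 2.73-fold lower (1.98 to 3.82), and B3GALNT1, the globoside synthase, from 666 to 353, 2.09-fold lower (1.84 to 2.39). B3GALNT1 also lies on chromosome 3. The COG subunits, which tether vesicles at the Golgi, had log2 fold changes from -0.34 to 0.39, with 0 of 9 entries past 1.5-fold. Core 1 synthase C1GALT1 and its chaperone C1GALT1C1 were inside 1.5-fold in reads (-0.26 and 0.25). In the authors' FPKM without a pseudocount, C1GALT1 was past it on the lower side (log2 ratio -0.61), and C1GALT1C1 was not (0.29). Of the galectins, LGALS1 had 1610 and 1696 reads and LGALS4 went from 59 to 26.

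**Figure D4:**
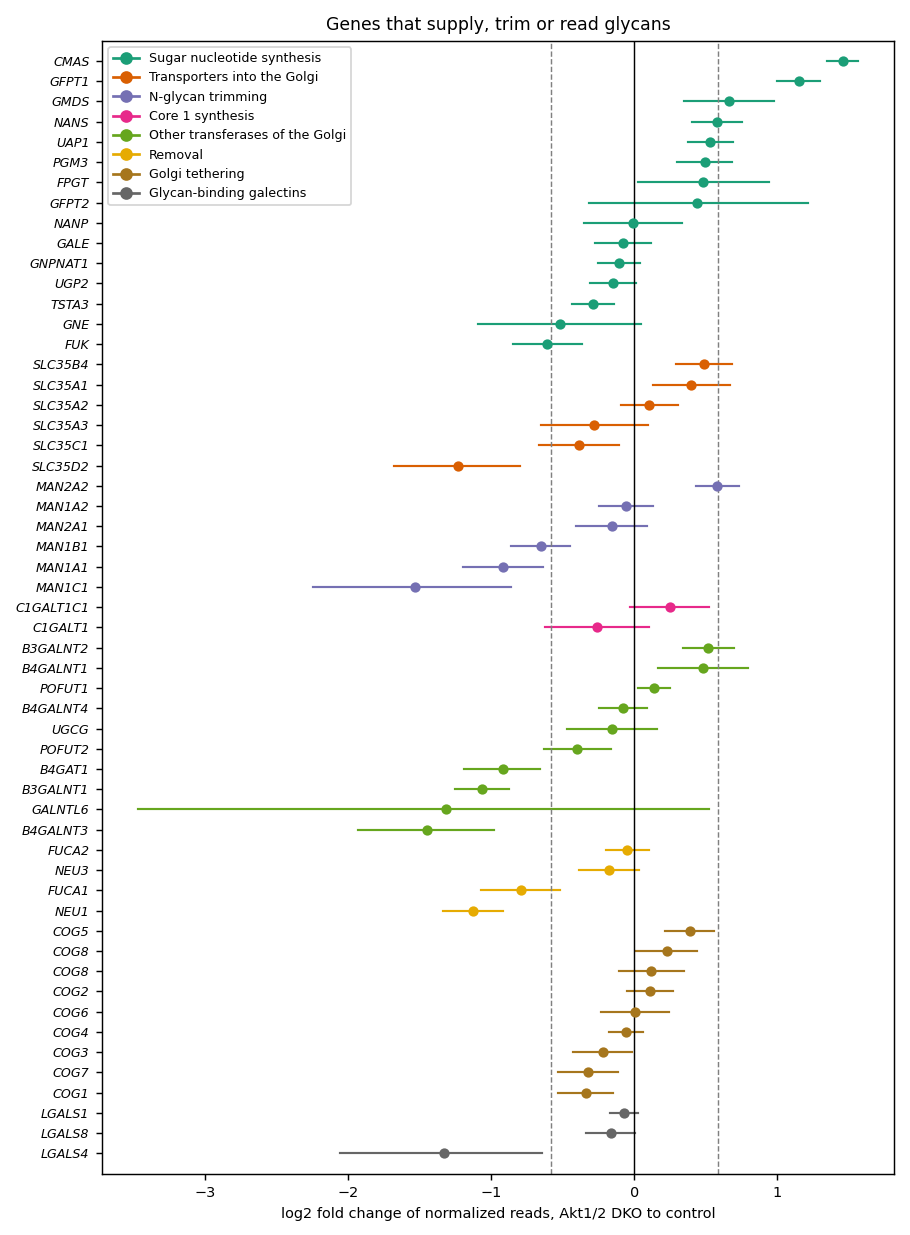
Log2 fold changes of normalized reads (Akt1/2 DKO to control, horizontal axis) with 95% counting intervals are drawn for the 55 compared entries of the list, coloured by step, with dashed lines at 1.5-fold. CMAS is highest at 1.46 and MAN1C1 lowest at -1.54, and the COG entries all lie between the dashed lines.

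Fold changes from reads and from FPKM differed for a few members. The ratio of reads to FPKM, taken relative to its median over all genes, differed by at least 1.5-fold between the libraries for 5 of 46 members with at least 10 reads in each (10.9%), and for 2.08% of 11869 such genes in the whole table. For GALNT7 the ratio was 1.65, and its log2 fold change was 2.78 in reads and 2.10 in FPKM. For MGAT3 it was 1.85 (-2.21 in reads and -3.05 in FPKM), for MGAT4A 0.509 (0.99 and 2.01) and for ST3GAL6 1.81 (1.17 and 0.36). Each kept its direction. FUT2 was the other, with a ratio of 1.57 and -0.29 in FPKM against 0.33 in reads, so that its direction was not settled. GALNT8, with 2 reads in Akt1/2 DKO, was below the read minimum for this ratio. Its log2 fold change was -4.28 in reads and -7.25 in FPKM, so the size of its difference was not settled.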

How the data were processed

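RNA sequencing of 1 Akt1/2 DKO and 1 control library of CWR22rv1 cells was analysed. The files deposited hold estimated counts per gene, without normalization, and the authors' FPKM values, which take transcript length and depth into account. The submitters' processing notes name fastp 0.20.0, TopHat, Cufflinks, edgeR and GRCh38.p10; the counting step and its use of strand are not given in the sources used here. The authors' own comparison (fold change, p-value, FDR, marked genes) and library correlation were not used.

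Estimated counts were rounded (1851 and 1811 genes of 19607 had fractions). Genes with a sum of 10 or more reads were compared (13318), and TMM factors (edgeR 4.0.16, R 4.3.3) set the library ratio at 1.11. Intervals are 95% Clopper-Pearson given the sum of both libraries (scipy 1.17.1) and cover counting error only. A library at 0 reads was set to 3 reads, a bound. With 1 library per group no p-value is given. Groups came from the genotype labels, and a call is a difference of at least 1.5-fold, the fold the study states.

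Named are AKT1 and AKT2, members past 1.5-fold whose interval excludes no change, the highest member of each class, members on chromosome 3, ST6GALNAC1, and the 4 largest rises and falls of the pathway list with at least 100 reads; other genes, among them those inside 1.5-fold, were named after their values were seen. Members and lists were chosen with earlier results of these data known. Positions are from GENCODE release 29 (GRCh38), which held 19571 of the identifiers. Promoters are from RefSeq. Alternatives were total count, upper-quartile and DESeq2 1.42.0 scaling, the authors' FPKM with pseudocounts of 0.1 and 1, 3 read filters, a prior count of 1, a 2-fold threshold and intervals excluding no change. On simulated data for this comparison over 13369 genes, all 200 genes changed 4-fold passed 1.5-fold (100%), as did 4.71% of 13169 unchanged genes. The changed genes were drawn from those with a mean of at least 50 reads, so their passing checks the code only. The draws held counting error alone. The 4.71% is therefore not a rate of false calls between 2 cultures or clones.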

Additional observations from a re-analysis of the deposited data

How the results depend on the processing

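A 2-fold threshold left 17 glycosyltransferases (9 higher, 8 lower), 2390 of all genes and 9 genes of the pathway list (2 higher, 7 lower), since it asks for a larger difference. A sum of at least 100 reads, chosen after seeing the data, left 15 members of 36, because fewer genes were compared. Under the other alternatives the count of members past 1.5-fold lay between 19 and 33. The median log2 fold change of the members stayed within -0.05 and 0.01. With the authors' FPKM, AKT1 was at -2.65 with a pseudocount of 0.1 and -2.59 with 1, and the cause was not tested. Among 34 named genes, 187 of 204 values stayed within the counting interval, 17 moved with the same sign, and 0 reversed. All 17 were in the authors' FPKM, 12 of them with a pseudocount of 1, which shrinks ratios of low values. Total count and upper-quartile scaling each lost 2 calls (MGAT4B and ST3GAL3), and FPKM with a pseudocount of 0.1 lost 4 and gained 2 (FUT8 and GALNT3, both past 1.5-fold in the direction of their reads). With a pseudocount of 1, FPKM gained the same 2 and lost 10 (B3GALT4, FUT1, FUT4, FUT9, FUT10, GALNT16, GCNT4, ST3GAL3, ST3GAL6 and ST8SIA5). The depth limits genes with few reads, such as GALNT8, FUT9 and B3GNT5, whose intervals are wide or without an upper end. No paired analysis was possible because there is 1 library of either genotype.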
